A study of Mus musculus with 6 samples.

Results

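Amphiregulin is one of a family of growth factors that act through the epidermal growth factor (EGF) receptor, and the genes described here are 10 members of that system: 5 ligands (Areg, Ereg, Hbegf, Tgfa and Btc), 3 receptors (Egfr, Erbb2 and Erbb3) and 2 membrane proteases (Adam17 and Adam10). They were chosen by symbol, and all 10 were found among the 37991 Ensembl genes counted in each library. The libraries are messenger RNA of group 2 innate lymphoid cells (ILC2), which make type 2 cytokines, sorted for Thy1 and ST2, the receptor for IL-33, among cells without lineage markers. Every mouse was homozygous for a transgene that drives Id1, which blocks DNA binding by E proteins, under the proximal lck promoter. The line was made on FVB/N and then crossed to C57BL/J for 10 generations or more. Per the labels, T cell development is blocked in these mice and the thymus makes an excess of ILC2. There was no group without the transgene, so no value below speaks to the effect of Id1. The 3 groups of 2 libraries were ILC2 of the thymus, untreated ILC2 of the mesenteric lymph nodes (fresh MLN), and MLN ILC2 kept in culture over 1 week with 10 ng/ml of each of the cytokines IL-7, IL-25 and IL-33 (cultured MLN). About 300000 cells went into each sample, and the labels state no age for the mice.

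The ligands are made as membrane-anchored precursors, and proteases of the ADAM family cut them free, a step called shedding. The soluble ligand binds the EGF receptor, which pairs with itself or with ERBB2 or ERBB3 and passes the signal to the Ras and MAP kinase relay. ERBB2 binds no known ligand, and ERBB3 has little kinase activity of its own and binds neuregulins. In tissues, amphiregulin from ILC2 is known for promoting repair of epithelium and for its part in type 2 immunity.

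Library totals ran from 35280692 to 40578264 counts. ILC2 and sort markers were present in all libraries, and their 8 genes summed to between 6016 and 9589 CPM (counts scaled to library totals corrected for composition with TMM factors, the normalised read count used here). Il1rl1, which encodes ST2, lay between 1444 and 2342 CPM. The 8 genes were not level across groups. From fresh to cultured MLN the mean of Il17rb went from 2906 to 112 CPM and that of Il7r from 2281 to 852. Rora went from 611 to 146 CPM and Thy1 from 335 to 113. The other 4, Il1rl1, Gata3, Id2 and Klrg1, were higher in cultured cells. The Id1 level was 1.33 CPM ± 0.207 in cultured MLN, against 451 ± 24.4 in fresh MLN and 424 ± 3.36 in thymus (SD, n = 2 per group). Culture and Id1 level thus differ together in each comparison with cultured MLN. The 2 cannot be told apart here, and a part of either was not tested. It is not stated if libraries of 1 group stem from different mice or cultures, and the p-values therefore reflect the spread among these libraries alone, which may be technical. In these bulk samples, fewer cells of a type and less RNA per cell cannot be told apart.

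The promoters below are those of the genes on which the results turn: Areg, Tgfa and Egfr, which were higher after culture, and Adam17, which was not called in any comparison. Each is the 250 bases before the gene's start in RefSeq on build GRCm38.p6, printed 5′ to 3′ on the gene's strand. The reference table held 7 of the 10 genes. Capitals mark the motifs that were searched for on both strands: the cyclic AMP response element (CRE, TGACGTCA), the AP-1 site TGACTCA, the GATA site GATAA, the STAT site TTCNNNGAA, the TATA box TATAAA and the SP1 site GGGCGG, which reads CCGCCC on the other strand.
Areg, chr5:91139349-91139598, plus strand: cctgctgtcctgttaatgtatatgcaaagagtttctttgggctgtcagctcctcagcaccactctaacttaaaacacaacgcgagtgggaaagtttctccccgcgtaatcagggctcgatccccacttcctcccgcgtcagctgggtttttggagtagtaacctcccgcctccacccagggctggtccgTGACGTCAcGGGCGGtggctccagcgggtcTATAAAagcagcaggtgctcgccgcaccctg
Tgfa, chr6:86194972-86195221, plus strand: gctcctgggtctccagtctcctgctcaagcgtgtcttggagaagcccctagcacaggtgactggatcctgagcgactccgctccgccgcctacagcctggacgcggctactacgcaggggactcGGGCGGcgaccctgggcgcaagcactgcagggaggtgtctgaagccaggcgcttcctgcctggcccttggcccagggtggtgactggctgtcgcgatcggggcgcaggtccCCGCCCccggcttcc
Egfr, chr11:16751953-16752202, plus strand: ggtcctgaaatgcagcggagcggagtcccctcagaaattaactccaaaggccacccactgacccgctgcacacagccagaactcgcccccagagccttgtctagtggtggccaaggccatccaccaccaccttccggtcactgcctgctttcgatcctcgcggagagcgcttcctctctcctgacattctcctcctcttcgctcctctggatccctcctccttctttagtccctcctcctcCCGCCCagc
Adam17, chr12:21373633-21373882, minus strand: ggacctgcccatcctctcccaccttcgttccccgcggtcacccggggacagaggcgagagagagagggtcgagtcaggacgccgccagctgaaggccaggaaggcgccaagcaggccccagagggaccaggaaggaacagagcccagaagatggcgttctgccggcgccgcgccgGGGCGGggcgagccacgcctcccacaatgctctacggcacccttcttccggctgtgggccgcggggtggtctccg

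The Areg promoter held a CRE beginning 61 bases before the start, an SP1 site at 52 bases and a TATA box at 31 bases. Among the 7 promoters, Areg alone matched the CRE and the TATA box. Of all 32851 promoters of this length in the table, 1.55% held the CRE, 12.4% the TATA box and 32.7% the SP1 site. Tgfa, Egfr and Adam17 each matched the SP1 motif and none of the other motifs. GC content was 57.2% for Areg, 60.8% for Egfr, 69.2% for Tgfa and 70.4% for Adam17, with a median of 52.4% over all promoters. A match describes these letters only and is not evidence that a factor binds there.

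Culture with the cytokines was accompanied by a large rise of Areg, from 0.993 to 463 CPM, and by rises of the ligands Ereg, Tgfa and Hbegf and of the receptors Egfr and Erbb3. The sheddases Adam17 and Adam10 were abundant in all 3 groups and did not pass the test between cultured and fresh cells. Of the 10 members, 9 had enough counts to be tested and Erbb2 did not. In cultured against fresh MLN, 6 of the 9 tested members were called higher (edgeR's quasi-likelihood test with Benjamini-Hochberg adjustment over 16231 genes, adjusted p under 0.05) and 0 lower. DESeq2 called 7 members, and 73.1% of all genes. By edgeR, 77.6% of all genes tested were called in this comparison, 39.4% higher and 38.1% lower, so a call by itself sets no gene apart. The median log2 fold change of the tested members was 2.18, against -0.01 over all genes. Ereg and Egfr passed the filter on low counts only because of their counts in cultured cells. Both are among the 6 called and enter the members' median. When libraries were scaled by their totals alone, the median of all genes moved to -0.23 in this comparison, and to -0.32 in cultured MLN against thymus. With that scaling higher genes made up 35.1% of those called, in place of 47.9%, in cultured MLN against thymus.

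**Figure D1:**
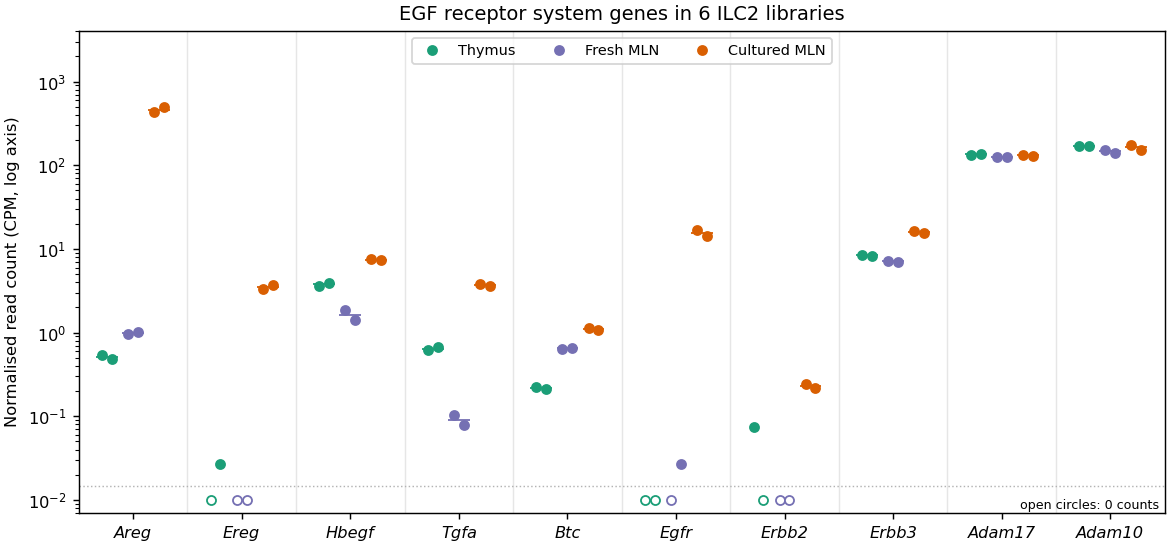
Normalised read count (CPM, log axis) of each gene in each of the 6 libraries, where points are libraries, short lines are group means (left out where a library had 0 counts) and open circles under the dotted line are 0 counts. Areg lies at 430 and 496 CPM in cultured cells and at or near 1 CPM or below in fresh MLN and thymus, while Adam17 and Adam10 lie above 100 CPM in every library.

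Among the ligands, Areg (ENSMUSG00000029378, amphiregulin) was 430 and 496 CPM in the cultured libraries, 0.977 and 1.01 in fresh MLN, and 0.542 and 0.479 in thymus. Both cultured libraries lay far above the other 4, and the 3 groups did not overlap. The gene had 32236 counts over the cultured libraries, against 76 over fresh MLN and 40 over thymus. Ranked by CPM among the 16231 genes tested, Areg stood at place 347 in cultured cells and at place 12529 in fresh MLN. Its mean was 463 CPM ± 46.2 in cultured cells and 0.993 ± 0.0231 in fresh MLN (SD, n = 2 per group), or 466-fold apart. The log2 fold change was 8.86 ± 0.12 (SE) with an adjusted p of 8.1e-15. Leaving out each library in turn gave 8.76 to 8.96.

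Ereg encodes epiregulin, a ligand of the EGF receptor and ERBB4. Ereg (ENSMUSG00000029377) was 3.29 and 3.72 CPM in cultured cells, with 109 and 135 counts. It had 0 counts in both fresh MLN libraries and 1 count over the 2 thymus libraries. Measured against a floor of 3 counts over the fresh group, it was at least 89.7-fold higher in cultured cells (adjusted p = 7.4e-08). Tgfa encodes transforming growth factor alpha. Tgfa (ENSMUSG00000029999) was 3.86 and 3.61 CPM in cultured cells, 0.103 and 0.0797 in fresh MLN, and 0.616 and 0.665 in thymus, and the groups did not overlap. The difference between cultured and fresh MLN was 41.0-fold (log2 fold change 5.30 ± 0.36, adjusted p = 1.7e-08), on 7 counts over the fresh group.

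Hbegf encodes heparin-binding EGF-like growth factor, a ligand of the EGF receptor and ERBB4. Hbegf (ENSMUSG00000024486) was 7.63 and 7.33 CPM in cultured cells, 1.85 and 1.43 in fresh MLN, and 3.57 and 3.96 in thymus. The groups did not overlap, and cultured cells were 4.56-fold above fresh MLN (log2 fold change 2.18 ± 0.19, adjusted p = 1.9e-07). Btc encodes betacellulin, a further ligand of the EGF receptor. Btc (ENSMUSG00000082361) was 1.15 and 1.08 CPM in cultured cells and 0.642 and 0.664 in fresh MLN. Its log2 fold change of 0.76 ± 0.33 missed the threshold (adjusted p = 0.051), although the 2 groups did not overlap. It passed with RLE size factors (adjusted p = 0.044) and in a fit on these 4 libraries alone (adjusted p = 0.049).

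The receptor genes differed from one another in how they were found before culture. Egfr (ENSMUSG00000020122), the receptor that binds amphiregulin, was 16.7 and 14.1 CPM in cultured cells, with 553 and 512 counts. It had 1 count over the 2 fresh MLN libraries and 0 counts in both thymus libraries. The ratio of scaled counts between cultured and fresh MLN was 1175, with an exact 95% interval of 210.4 to 46444 that covers counting error only (adjusted p = 2.4e-10). Against thymus, cultured cells were at least 399.8-fold higher (adjusted p = 2.9e-10).

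Erbb3 (ENSMUSG00000018166) was measured in every group, at 16.6 and 15.4 CPM in cultured cells, 7.25 and 7.01 in fresh MLN, and 8.50 and 8.35 in thymus. Cultured cells were higher than both other groups. The difference from fresh MLN was 2.24-fold (log2 fold change 1.16 ± 0.12, adjusted p = 7.6e-07). Erbb2 (ENSMUSG00000062312) had 8 counts in each cultured library, 0 in both fresh MLN libraries, and 3 and 0 in thymus. It did not pass the filter on low counts. Against the floor of 3 counts over the fresh group, the cultured level was at least 5.88-fold higher, with no test.

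The sheddases were level across the groups by comparison. Adam17 (ENSMUSG00000052593), the main sheddase of amphiregulin, was 135 and 130 CPM in cultured cells, 125 and 127 in fresh MLN, and 134 and 136 in thymus. Its log2 fold change between cultured and fresh MLN was 0.07 ± 0.06 (adjusted p = 0.31). Adam10 (ENSMUSG00000054693), which sheds betacellulin among many substrates, was 174 and 153 CPM in cultured cells, 154 and 139 in fresh MLN, and 171 and 169 in thymus. Its log2 fold change was 0.16 ± 0.08 (adjusted p = 0.077), and the highest fresh library lay above the lower cultured one. DESeq2 called Adam10 in this comparison (adjusted p = 0.049), as did RLE factors (adjusted p = 0.042) and fits without cultured replicate 2 (adjusted p = 0.024) or without fresh replicate 1 (adjusted p = 0.034). With library totals alone, Adam17 was called lower in cultured cells (log2 fold change -0.15, adjusted p = 0.035).

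Cultured MLN compared with thymus gave 7 of 9 tested members higher and 0 lower. The background was 72.7% of genes called, 34.8% higher and 37.8% lower. The members' median log2 fold change was 2.33, against -0.06 over all genes. Ereg and Egfr, which passed the filter only through their cultured counts, are among the 7 called and enter this median. Areg was 907-fold higher (log2 fold change 9.81 ± 0.13, adjusted p = 8.9e-15). For Ereg the ratio of scaled counts was 275, with an exact 95% interval of 48.9 to 10898 (adjusted p = 1.2e-07). Tgfa was 5.83-fold higher (adjusted p = 1.4e-06) and Btc 5.11-fold higher (adjusted p = 0.00014). Hbegf was 1.99-fold higher (adjusted p = 0.00017) and Erbb3 1.89-fold (adjusted p = 8.1e-06). For Erbb2, which was not tested, the ratio was 6.01 with an exact 95% interval of 1.72 to 32.2. Adam17 (log2 fold change -0.03 ± 0.06) and Adam10 (-0.06 ± 0.08) did not pass, with adjusted p of 0.67 and 0.53. With library totals alone both were called lower in cultured cells (log2 fold changes -0.29 and -0.31, adjusted p = 0.00082 and 0.0027). This comparison shares the cultured libraries with the one above, so the 2 sets of calls are not independent. Organ, culture and Id1 level differ together in it.

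**Figure D2:**
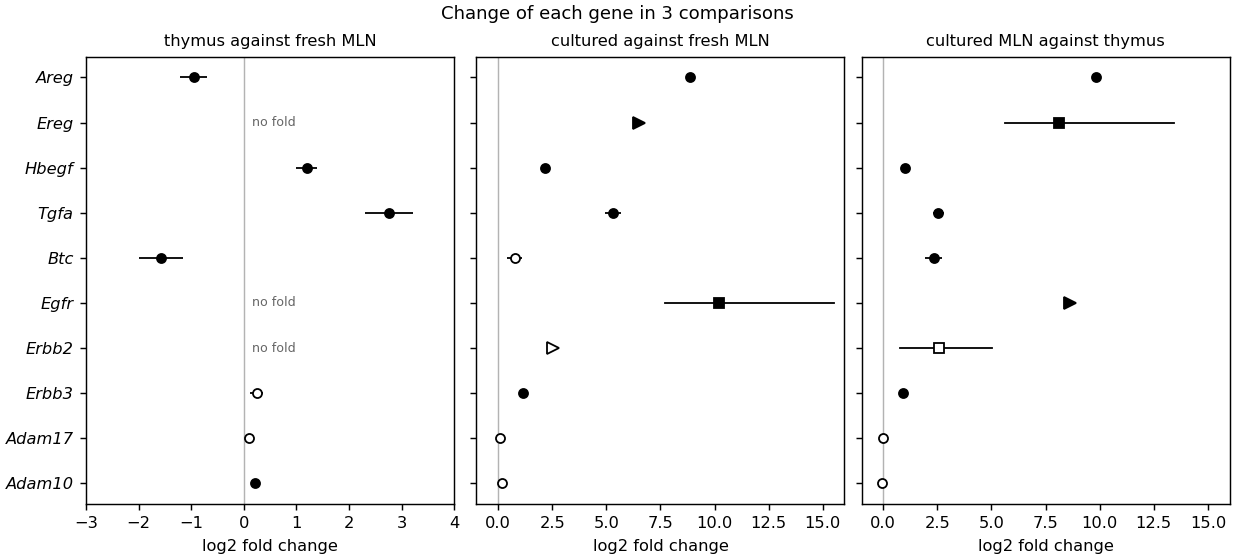
log2 fold change of each gene in the 3 comparisons, where circles are fitted values with bars of 1 SE, triangles are lower bounds against a group without counts, squares are ratios against 1 to 3 counts with an exact 95% counting interval, and filled symbols were called. The first panel has a narrower axis than the others: its called values run from -1.57 for Btc to 2.76 for Tgfa, while Areg lies at 8.86 and 9.81 in the other panels.

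Before culture, the 2 organs differed in which ligand was higher. In thymus against fresh MLN, 3 members were called higher (Tgfa, Hbegf and Adam10) and 2 lower (Areg and Btc) of 9 tested. Over all genes 47.3% were called, 25.3% higher and 22% lower. The fresh libraries also serve as the reference for the cultured cells, so the comparisons are not independent. Tgfa was 7.02-fold higher in thymus (log2 fold change 2.76 ± 0.46, adjusted p = 0.0003), and Hbegf 2.29-fold higher (1.19 ± 0.20, adjusted p = 0.00029). Areg was 1.95-fold lower in thymus (log2 fold change -0.95 ± 0.26, adjusted p = 0.0083). Btc, at 0.222 and 0.213 CPM in thymus, was 3.01-fold lower (log2 fold change -1.57 ± 0.42, adjusted p = 0.0075). These 4 ligands did not overlap between the organs, but all lay below 4 CPM in both. With 2 libraries per group that sets no gene apart: Erbb3 and Adam17, which were not called, did not overlap either. Ereg and Egfr had 1 count or fewer over each group, and Erbb2 3 or fewer, so no difference was detectable at this depth and no fold is given.

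Erbb3 did not pass between the organs (log2 fold change 0.24 ± 0.12, adjusted p = 0.12), nor did Adam17 (0.10 ± 0.06, adjusted p = 0.2). Adam10 was called higher in thymus by a small margin (log2 fold change 0.22 ± 0.08, adjusted p = 0.036). That call was lost with DESeq2 (adjusted p = 0.078), with RLE factors (adjusted p = 0.064) and with upper-quartile factors (adjusted p = 0.055). It was lost too without fresh replicate 2 (adjusted p = 0.27), without thymus replicate 1 (adjusted p = 0.081) and without thymus replicate 2 (adjusted p = 0.064).

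Levels can be compared between genes once divided by length, here as CPM per kb of exon. On this scale the order of the ligands changed from group to group. In thymus Hbegf was highest at 0.779 CPM per kb, followed by Areg at 0.420, Tgfa at 0.0987, Btc at 0.0481 and Ereg at 0.00322. In fresh MLN Areg was highest at 0.817, followed by Hbegf at 0.340, Btc at 0.145 and Tgfa at 0.0141, with Ereg at 0. In cultured cells Areg reached 381 CPM per kb, which was 99.2% of the sum of the 5 ligands. Hbegf followed at 1.55, Ereg at 0.849, Tgfa at 0.576 and Btc at 0.246. Within each group the 2 libraries of neighbouring ligands in the order did not overlap.

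Erbb3 was the highest of the 3 receptors in each group on the per-length scale, at 1.40 CPM per kb in thymus, 1.18 in fresh MLN and 2.65 after culture. Egfr reached 1.36 in cultured cells, 33.5% of the receptor sum there. Erbb2 was 0.0443 in cultured cells, and it could not be ordered against Egfr in thymus or fresh MLN, where their libraries overlapped. Adam10 lay above Adam17 in every group, at 34.6 against 18.9 CPM per kb in thymus, 29.8 against 17.6 in fresh MLN and 33.3 against 18.5 in cultured cells. Both sheddases were thus above all 5 ligands in the fresh and thymus groups, and below Areg in cultured cells.

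**Figure D3:**
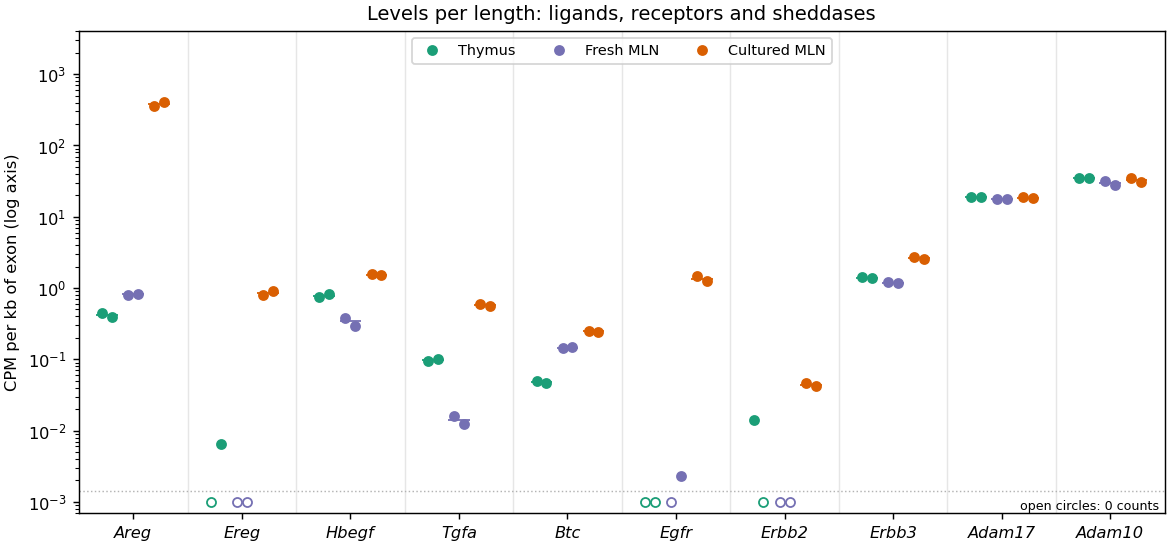
CPM per kb of exon (log axis) of each gene in each library, with the same marks as in the plot of CPM. Areg is the highest of all 10 genes in cultured cells at 381 CPM per kb, while Adam10 and Adam17 are the highest in thymus and fresh MLN.

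The genes whose pattern over the 3 groups was most like that of Areg were sought among 10070 genes, by the distance between group means of log2 CPM after centring each gene. The nearest 5 were Cemip at a distance of 0.28, Colec12 at 0.32, Cdh17 at 0.39, Tnfrsf9 at 0.42 and Scn7a at 0.50 log2 units. Tnfrsf9, which encodes the costimulatory receptor 4-1BB, was the most abundant of them after culture, at 2877 CPM ± 64.1, against 7.94 ± 1.31 in fresh MLN and 5.25 ± 0.658 in thymus (SD, n = 2 per group). All 5 were compared only because of their level in cultured cells, since none reached the required 10 CPM in thymus or fresh MLN. Cemip, Colec12 and Scn7a lay between 0 and 0.0531 CPM in all 4 thymus and fresh MLN libraries. Their distance thus depends on the small count added before taking logs. Cdh17 was at or below 0.463 CPM in those 4 libraries. The likeness rests on 3 group means and describes these libraries only.

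The rest of the pathway is described from lists of genes by role. Of 7 other EGF family ligands and receptors, 3 had enough counts to be tested. Nrg1, Nrg3 and Erbb4 had 0 counts in every library. Nrg4, a neuregulin that binds ERBB4, was 2.63 CPM ± 0.377 in thymus, 3.92 ± 0.424 in fresh MLN and 2.23 ± 0.041 after culture (SD, n = 2 per group). It was lower than in fresh MLN in both thymus (log2 fold change -0.58 ± 0.20) and cultured cells (-0.81 ± 0.20). Nrg2, chosen after its values were seen, was also called lower in both, but it never exceeded 0.514 CPM and its calls were lost in DESeq2 (adjusted p = 0.2 in thymus and 0.14 in cultured cells). Egf itself was not called in any comparison, and its group means were 2.28 CPM in fresh MLN, 1.87 in cultured cells and 1.75 in thymus.

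Shedding is controlled by proteins that carry ADAM17 and ADAM10 to the cell surface and by inhibitors of metalloproteases. Of 12 such genes 10 were tested, and in cultured against fresh MLN 6 were higher, 1 lower and 3 not called, with a median log2 fold change of 2.23. These 7 calls of 10 are close to the 77.6% called over all genes. Timp1, Timp3 and Tspan17 passed the filter on low counts only because of their counts in cultured cells. They are among the genes called higher in cultured cells against fresh MLN and against thymus, and they enter both medians. Timp3, which encodes an inhibitor of ADAM17, was 76.9 and 98.8 CPM in cultured cells and between 0.0798 and 0.394 CPM in the other 4 libraries. Its log2 fold change was 9.22 ± 0.26 against fresh MLN (adjusted p = 2.5e-12). Timp2, another metalloprotease inhibitor, was lower after culture, with 42.6 CPM in thymus, 10.6 in fresh MLN and 2.57 after culture, and was called in all 3 comparisons. Rhbdf2, chosen after its values were seen, encodes iRhom2, which brings ADAM17 to maturity. It was 132 and 133 CPM in cultured cells, 12.9 and 14.2 in fresh MLN, and 18.0 and 18.7 in thymus, a 9.82-fold rise over fresh MLN (log2 fold change 3.30 ± 0.08, adjusted p = 4.6e-13). Tspan14, a tetraspanin partner of ADAM10, was the most abundant of the list at 169 CPM in thymus, 131 in fresh MLN and 118 after culture. It was called higher in thymus than in fresh MLN and lower in cultured cells than in thymus. In thymus against fresh MLN 5 of the list were higher, 1 lower and 4 not called, with a median of 0.38, where 47.3% of all genes were called. In cultured MLN against thymus 6 were higher, 3 lower and 1 not called, with a median of 1.72, where 72.7% of all genes were called.

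Among other ADAM proteases listed, those tested had larger log2 fold changes in size than Adam17 and Adam10 between cultured and fresh MLN. Of 6 listed, 5 were tested, and in cultured against fresh MLN 3 were higher and 2 lower, where 77.6% of all genes were called. Adam8 was 1049 and 1056 CPM in cultured cells, 64.0 and 52.3 in fresh MLN, and 48.8 and 42.8 in thymus, an 18.1-fold rise over fresh MLN (log2 fold change 4.18 ± 0.10, adjusted p = 7.5e-13). Adam15 was 129 CPM in cultured cells and 5.22 in fresh MLN (log2 fold change 4.63 ± 0.09). Adam12, chosen after its values were seen, went from 193 counts over the fresh libraries to 0 over the cultured ones, at least 58.3-fold lower. Adam19 was 245 CPM in fresh MLN and 159 after culture (log2 fold change -0.62 ± 0.11). In thymus against fresh MLN 1 was higher and 3 lower, and in cultured MLN against thymus 3 were higher, 1 was lower and 1 was not called, beside 47.3% and 72.7% of all genes called.

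The signal relay downstream of the receptors had calls in both directions, as had all genes tested. Of 19 tested genes, 10 were higher, 8 lower and 1 not called in cultured against fresh MLN, with a median log2 fold change of 0.20, beside 39.4% of all genes called higher and 38.1% lower. Gab2, a docking protein that recruits phosphatidylinositol 3-kinase, was 173 CPM in cultured cells, 7.84 in fresh MLN and 16.9 in thymus (log2 fold change over fresh MLN 4.46 ± 0.14). Sos1, an exchange factor that activates Ras, was 608 CPM in cultured cells and 94.1 in fresh MLN (2.69 ± 0.07). Pik3r1, the regulatory subunit of that kinase, was 179 CPM in cultured cells and 447 in fresh MLN (-1.32 ± 0.07). Araf, a kinase below Ras, was 206 CPM in fresh MLN, 139 in thymus and 134 in cultured cells. In thymus against fresh MLN 8 relay genes were higher, 7 lower and 4 not called. Between cultured cells and thymus 9 were higher, 7 lower and 3 not called. The shares over all genes were 47.3% and 72.7%.

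Feedback inhibitors of the pathway were split after culture, with 7 higher and 10 lower of 17 against fresh MLN. Their median log2 fold change was -0.62. Spry4, among the 7 higher, passed the filter on low counts only because of its counts in cultured cells. Over all genes 77.6% were called, 39.4% higher and 38.1% lower. The split was again 7 higher and 10 lower against thymus, a comparison that shares the cultured libraries, with a median of -0.38. There 72.7% of all genes were called, 34.8% higher and 37.8% lower. Errfi1 encodes MIG6, which binds and inhibits the EGF receptor kinase. It was 52.3 and 53.3 CPM in cultured cells, 2.24 and 2.58 in fresh MLN, and 2.54 and 1.78 in thymus, a 21.9-fold rise over fresh MLN (log2 fold change 4.45 ± 0.13, adjusted p = 4.1e-12). Lrig1 encodes a membrane protein that promotes the breakdown of ERBB receptors. It was 0.181 and 0.303 CPM in cultured cells, 57.7 and 63.7 in fresh MLN, and 36.5 and 38.5 in thymus, a 251-fold fall from fresh MLN (log2 fold change -7.93 ± 0.16, adjusted p = 1.2e-13). Errfi1 and Lrig1, both inhibitors of the receptors themselves, moved in opposite directions, and neither overlapped between cultured and fresh cells.

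Socs4, which promotes degradation of the EGF receptor, was 170 CPM in fresh MLN, 136 in thymus and 82.9 in cultured cells. Spry2, an inhibitor of the Ras relay, was 8.60 CPM in fresh MLN, 4.39 in thymus and 2.74 in cultured cells. Dusp5, a phosphatase of the MAP kinase ERK, was 121 CPM in thymus, 82.9 in fresh MLN and 49.1 after culture. These 3 genes were called in all 3 comparisons. Between thymus and fresh MLN, 2 of the 17 inhibitors were higher, 6 lower and 9 not called, a share near the 47.3% of all genes.

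**Figure D4:**
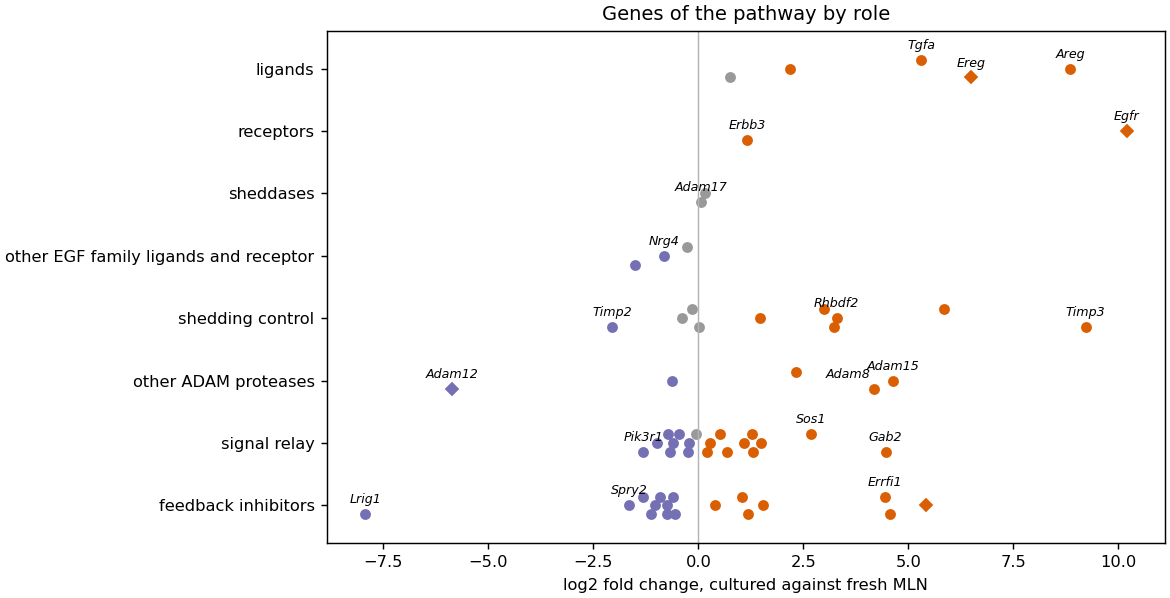
log2 fold change of cultured against fresh MLN for the tested genes of each role, where points are genes, orange was called higher, purple lower and grey was not called, and diamonds are genes with 3 counts or fewer over a group, drawn at their lower bound or count ratio. Ligands and receptors lie to the right of 0, the sheddases close to 0, and the feedback inhibitors on both sides, from -7.93 for Lrig1 to beyond the 4.45 of Errfi1.

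Genes of other cell types were read beside these results, since epithelium, stroma, mast cells and basophils can also make or receive EGF family ligands. Epithelial markers, of which 8 were listed, summed to 16.3 to 16.4 CPM in thymus, 15.1 to 19.7 in fresh MLN and 7.996 to 10.5 after culture. The fall of the sum was that of Cdh1, from 17.7 and 13.4 CPM in fresh MLN to 0.573 and 0.524 in cultured cells. The other 3 of the 4 tested were called higher in cultured against fresh MLN, like Areg, Egfr and 39.4% of all genes. Of these, Epcam went from 1.95 and 1.54 CPM to 4.80 and 6.67, Krt18 from 0.0514 and 0.0797 to 1.84 and 2.37, and Krt19 from 0 counts to 24 and 28 counts. Krt18 and Krt19 passed the filter on low counts only because of their counts in cultured cells. Krt5, Krt8 and Cldn4 had 3 counts or fewer in each cultured library, and Foxn1 had 0.

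Stromal and endothelial markers, 9 in number, summed to 187 to 194 CPM in thymus, 147 to 154 in fresh MLN and 165 to 167 after culture, mostly Pecam1. Of the 4 tested, 3 were called higher in cultured against fresh MLN and 1, Pdgfrb, lower, where 77.6% of all genes were called. Lum went from 0 counts in both fresh libraries to 103 and 63 counts, Col1a1 from 3 and 7 to 41 and 38 counts, and Pecam1 from 110 and 99.5 CPM to 155 and 152. Lum and Col1a1 passed the filter on low counts only because of their counts in cultured cells. Col3a1 and Cdh5 were at 0 in cultured cells, and Col1a2, Pdgfra and Dcn had 8 counts or fewer in each cultured library. Whether the epithelial, stromal or endothelial markers bear on the rise of the ligands and receptors was not tested.

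Markers of mast cells and basophils, 8 in number, summed to 816 to 831 CPM in thymus, 340 to 383 in fresh MLN and 758 to 1055 after culture. The sum was mostly Kit in thymus (mean 704 CPM) and in fresh MLN (335 CPM), and mostly Mcpt8 in cultured cells (727 CPM). Of the 4 tested, 2 were called higher in cultured against fresh MLN and 2 lower, where 77.6% of all genes were called. Mcpt8, a basophil protease, rose in the same direction as Areg, from 0.231 and 0.186 CPM to 588 and 866, and Cma1, a mast cell chymase, from 4 and 4 counts to 17 and 35. Mcpt8 and Cma1 passed the filter on low counts only because of their counts in cultured cells. Kit, a growth factor receptor of mast cells, fell from 315 and 355 CPM to 170 and 187, and Cpa3, a mast cell protease, from 23.95 and 28.2 CPM to 0.0905 and 0.110. Ms4a2, a chain of the high-affinity IgE receptor, was at 0 in cultured cells, and Mcpt4, Fcer1a and Tpsb2 had 5 counts or fewer in each cultured library. In all, 6 of the 8 were under 1 CPM there. Their part in the Areg result was not tested.

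Macrophage and dendritic markers, 12 in number, summed to 15.3 to 21.8 CPM in thymus, 99.2 to 105.5 in fresh MLN and 57.9 to 63.8 after culture. Of the 11 tested, 3 were called higher in cultured against fresh MLN and 8 lower, where 77.6% of all genes were called. The fresh MLN sum was mostly Cybb, which went from 72.3 and 66.8 CPM to 0.0603 and 0.0827. The 3 higher were Xcr1, from 5.53 and 6.40 CPM to 38.8 and 33.4, Cd68, from 3.29 and 4.67 to 16.9 and 15.96, and Adgre1, from 0.231 and 0.292 to 3.59 and 3.56.

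B cell markers, 7 in number, summed to 18.8 to 23.3 CPM in thymus, 13.3 to 18.5 in fresh MLN and 57.0 to 58.7 after culture. Of the 4 tested, 3 were called higher in cultured against fresh MLN and 0 lower, beside 39.4% of all genes called higher. Cd79b went from 16.7 and 11.1 CPM to 47.1 and 50.3, Cd22 from 1.26 and 1.41 to 7.84 and 7.03, and Ebf1 from 0 counts to 54 and 27 counts, while Cd79a was not called and Ms4a1 was at 0 in cultured cells. Ebf1 passed the filter on low counts only because of its counts in cultured cells. T cell markers, 8 in number, summed to 105 to 107 CPM in thymus, 119 to 126 in fresh MLN and 58.3 to 67.2 after culture. In cultured against fresh MLN 6 were called lower, 0 higher and 2 not called, beside 38.1% of all genes called lower. Whether the macrophage, dendritic, B or T cell markers bear on the levels of the ligands before or after culture was not tested.

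Some members share exon bases with a gene on the opposite strand, and how the counting treated strand is not given in the sources used here. In a later annotation (GENCODE M21) the overlap was 4.35% of exon bases for Adam17 with Iah1, 3.42% for Ereg with Gm19610, 1.82% for Tgfa with Gm43917 and 0.173% for Erbb2 with Mien1. Among the other genes named from the lists, the largest overlaps were 22.1% for Dusp5, 21.3% for Timp3 with Syn3 and 20.6% for Adam15. Smaller ones included 9.5% for Cd22, 8.25% for Adam19 with Gm16033 and 6.75% with Gm16034, and 6.06% for Nrg4 with Fbxo22. The values of genes with such overlaps are less certain for that reason. Areg, Hbegf, Btc, Egfr, Erbb3 and Adam10 had no such overlap.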

How the data were processed

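The authors deposited 1 file per library with raw counts of reads per Ensembl gene, and no normalization. Per the submitters' processing notes, HTSeq 0.5.3p9 and the builds mm9 and NCBIM37 were used; which aligner, annotation release or strand option was used is not given in the sources used here. All 37991 entries named genes; 32938 matched GENCODE M21, used for symbols and exon lengths only, since the counts rest on an older build.

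The members, lists and tests were chosen with earlier results of these data known. Genes were filtered with filterByExpr (16231 of 23871 with a count kept), scaled with TMM factors and fitted over all 6 libraries, 1 mean per group, with the two-sided quasi-likelihood F test of edgeR 4.0.16 in R 4.3.3 and p-values adjusted by Benjamini-Hochberg over every tested gene. "Called" means an adjusted p under 0.05. The SE of a log2 fold change is its size divided by the square root of F. The fit had 3 residual and 9.54 prior degrees of freedom. It was tested on simulated counts with a common spread for all genes and changes set in thymus alone. That does not cover the comparison of cultured with fresh MLN. A permutation of 2 against 2 libraries cannot reach 0.05, so none was run. Floors of 3 counts and 95% intervals cover counting error only, since PCR copies cannot be told from separate molecules here.

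Named were all members, Id1, and from each list the most abundant gene and the called genes with the largest change in each direction, if they reached 5 CPM in the higher group. Not every gene this rule names is reported here. Marker lists are given by summed level, with the calls of their tested genes against fresh MLN. For likeness to Areg, genes needed 10 CPM in their highest group. The alternatives were RLE, upper-quartile and library-total scaling, a replicate block, other filters, fits on 4 libraries or on protein-coding genes, each library left out, a 2-fold threshold inside the test, and DESeq2 1.42.0.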

Additional observations from a re-analysis of the deposited data

How the results depend on the processing

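Over 16 alternatives, the 25 tested log2 fold changes of the members kept direction and call in 362 of 392 values; 13 lost the call, 9 gained it and 8 changed sign. Areg, Ereg, Egfr and Tgfa were called higher in cultured cells against both other groups in every alternative that tested them. With at least 5 CPM in 2 libraries, the number of members called was 3 in thymus against fresh MLN (5 as reported) and 4 in cultured MLN against thymus (7 as reported), since fewer members were tested. Over all genes that filter gave 57.0% and 80.0% called in these 2 comparisons. The test against a 2-fold change called 1 member in thymus against fresh MLN, and over all genes 1298, 5676 and 4455 in place of 7677, 12592 and 11793 in thymus against fresh MLN, cultured against fresh MLN and cultured MLN against thymus. By it, Hbegf and Erbb3 were no longer called against thymus, nor Erbb3 against fresh MLN. It also moved 14 of 24 counts of calls per gene list by more than 1.5 times: in cultured against fresh MLN to 6 relay genes (18 as reported) and 7 feedback inhibitors (17), and in thymus against fresh MLN to 0 of both (15 and 8).

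Signs changed as follows, and the cause was not tested. With library totals alone, cultured against fresh MLN was -0.15 for Adam17 and -0.063 for Adam10, and cultured MLN against thymus was -0.25 for Adam19. In cultured MLN against thymus, Adam17 was 0.027 with RLE factors, 0.0068 with 4 libraries and 0.027 with DESeq2. There Adam10 was 0.00068 and 0.00072, and Araf 0.0073 and 0.0073, with RLE factors and DESeq2, and Adam19 was -0.013 with protein-coding genes only. None but the first of these passed its test. Leaving out each library in turn gave -0.82 to 1.44 for Timp3 and -0.43 to 0.085 for Errfi1 in thymus against fresh MLN. In cultured MLN against thymus it gave -0.15 to 0.042 for Adam10, -0.33 to 0.11 for Nrg2 and -0.16 to 0.19 for Adam19.

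Replicate numbers are shared between groups, but same-numbered libraries deviated together only weakly (correlations over genes of 0.034, 0.021 and 0.115 between pairs of groups), so the numbers were not taken to pair them. With a replicate block, 5, 7 and 7 members were called in the 3 comparisons, and the added call was Adam10 in cultured against fresh MLN (log2 fold change 0.16, adjusted p = 0.037). Over all genes the block called 49.6% in thymus against fresh MLN, 78.5% in cultured against fresh MLN and 73.6% in cultured MLN against thymus. Depth limits the values of Ereg, Egfr and Erbb2 before culture and of Erbb2 throughout. Without the filter, Erbb2 was called in cultured against fresh MLN (adjusted p = 0.004) and not in cultured MLN against thymus (adjusted p = 0.088).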

Other observations

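In the RefSeq gene order of GRCm38.p6, the ligand genes Epgn, Ereg, Areg and Btc follow one another on chromosome 5, with Mthfd2l, Cxcl2 and Cxcl1 on one side and Parm1, Rchy1, Odaph and Cdkl2 on the other. These neighbours were chosen for their place and after values were seen. Epgn, which encodes epigen, had 10 counts over thymus, 8 over fresh MLN and 9 over cultured MLN, next to the 244 of Ereg and 32236 of Areg in cultured cells. Mthfd2l, a mitochondrial enzyme of folate metabolism, was 2.56 CPM ± 0.0513 in fresh MLN and 6.35 ± 0.0181 in cultured cells (log2 fold change 1.31 ± 0.17, adjusted p = 9.9e-06). Cxcl2, a neutrophil chemokine, was 3.24 CPM ± 0.0234 in cultured cells and had 5 counts over fresh MLN (log2 fold change 5.56 ± 0.55, adjusted p = 7.5e-07). Cxcl1 had 2 counts over cultured cells and was not tested.

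On the other side of Areg and Btc, Parm1 was higher in thymus, at 9.73 CPM ± 2.59 against 0.780 ± 0.314 in fresh MLN (log2 fold change 3.63 ± 0.27, adjusted p = 2.3e-07), where Areg and Btc were lower. Rchy1, a ubiquitin ligase, was lower in cultured cells than in fresh MLN (log2 fold change -0.60 ± 0.08, adjusted p = 8.7e-06). Cdkl2, a kinase, was 9.59 CPM ± 0.734 in cultured cells and 0.221 ± 0.0872 in fresh MLN (log2 fold change 5.41 ± 0.28, adjusted p = 8.1e-10). Of the genes nearest to Areg on that side, Btc (adjusted p = 0.051) and Parm1 (adjusted p = 0.092) were not called in cultured against fresh MLN, and Parm1 was lower in cultured cells than in thymus (log2 fold change -2.97 ± 0.26, adjusted p = 2.6e-07). Over all genes, 39.4% were called higher in cultured against fresh MLN. Errors of CPM are SD with n = 2 per group, and p-values are edgeR's over all genes.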
